A study of Homo sapiens with 8 samples.

Results

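The integrated stress response was followed here through 10 genes: the transcription factors ATF4, ATF3, ATF5, DDIT3 (CHOP), CEBPB, CEBPG and JDP2, the pseudokinase TRIB3, the phosphatase subunit PPP1R15A (GADD34) and the chromatin-binding stress protein NUPR1. They were chosen by name, with earlier results of these data known. Every probe set that the platform annotation ties to one of them alone was used, 19 probe sets for 10 of 10 genes. All 10 genes passed the filter on dim signals and were among the 13584 genes tested, and 18 of the 19 probe sets lay above that filter. The cells were A549, an established line from a human lung adenocarcinoma. They received either an siRNA against SRC-1 (steroid receptor coactivator 1, encoded by NCOA1) or a control siRNA, were kept for 36 h in medium with 10% dialyzed serum, and then got DMEM, also with 10% dialyzed serum, that held glucose or lacked it. Crossing siRNA and medium gave 4 groups (SRC-1 siRNA in glucose medium, SRC-1 siRNA in medium lacking it, and the same media for control siRNA), each with 2 Affymetrix arrays, which the labels describe as biological replicates. All groups were transfected. The labels do not state how long the last medium was left on, nor whether the medium before it held glucose.

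The integrated stress response begins when one of a small family of kinases phosphorylates the initiation factor eIF2. PERK responds to stress in the endoplasmic reticulum, GCN2 to missing amino acids, PKR to double-stranded RNA and HRI to heme shortage and mitochondrial stress. Phosphorylated eIF2 blocks its own exchange factor eIF2B, so most translation slows, while a few mRNAs with upstream reading frames, ATF4 and ATF5 among them, are translated better. ATF4 then switches on genes of amino acid supply and a second layer of factors such as CHOP, and PPP1R15A closes the loop by bringing a phosphatase back to eIF2. The arrays measure mRNA only, so translation of ATF4, phosphorylation of eIF2 and protein levels were not analysed here. In RNA from whole cultures, fewer cells that express a gene and less of its RNA per cell cannot be told apart.

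The C/EBP-ATF composite element is the sequence that ATF4 binds as a dimer with a C/EBP protein, and promoters are shown to describe which members carry it near a start. Whether mRNA was made or broken down at another rate was not measured. Sequences come from RefSeq on GRCh38.p14, which holds windows for 9 of the 10 genes, 20 windows in all. NUPR1 is not among them. The part searched was the 250 bases before each start. Windows of the 3 genes that changed most, DDIT3, ATF3 and PPP1R15A, are shown whole, each lying directly before the outermost annotated start of its gene. Capitals mark a match to a searched motif, which is an AP-1 element in DDIT3, a composite element in ATF3 and a CRE in PPP1R15A. The DDIT3 window is chr12:57520518-57520767 on the minus strand, the ATF3 window chr1:212565157-212565406 on the plus strand, and the PPP1R15A window chr19:48872171-48872420 on the plus strand.
DDIT3: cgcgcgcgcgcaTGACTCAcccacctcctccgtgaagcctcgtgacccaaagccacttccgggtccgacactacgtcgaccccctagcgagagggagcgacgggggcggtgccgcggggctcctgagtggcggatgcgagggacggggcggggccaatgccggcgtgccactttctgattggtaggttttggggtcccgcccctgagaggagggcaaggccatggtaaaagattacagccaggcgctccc
ATF3: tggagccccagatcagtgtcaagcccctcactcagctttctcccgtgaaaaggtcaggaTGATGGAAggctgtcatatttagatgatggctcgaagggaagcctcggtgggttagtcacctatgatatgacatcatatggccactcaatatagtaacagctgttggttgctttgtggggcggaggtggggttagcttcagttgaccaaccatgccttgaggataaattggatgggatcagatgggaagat
PPP1R15A: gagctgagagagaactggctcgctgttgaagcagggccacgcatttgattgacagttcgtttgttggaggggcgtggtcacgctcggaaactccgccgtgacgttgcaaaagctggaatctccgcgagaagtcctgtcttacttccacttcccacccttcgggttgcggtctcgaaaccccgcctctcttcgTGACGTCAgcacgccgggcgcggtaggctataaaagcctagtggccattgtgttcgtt

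For 3 further genes a short stretch around the match is shown, since the match is what distinguishes their windows. The CEBPG stretch, chr19:33374060-33374089, and the JDP2 stretch, chr14:75427995-75428021, hold a composite element in capitals and lie before an inner start, within the span of their genes (33373709 to 33382686 and 75426943 to 75474107). The ATF5 stretch, chr19:49928707-49928735, holds an AP-1 element in capitals and lies before the outermost start. All 3 are on the plus strand.
CEBPG: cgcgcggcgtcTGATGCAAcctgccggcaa
JDP2: atagccggggcTGATGCAAcccgtccc
ATF5: ggagagtgctgTGACTCAtgctggactct

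The motifs were searched on both strands and did not overlap one another in these windows. The composite element, TGATGNAA, was found in 3 of the 20 windows, against 3.14% of 35116 windows of this kind. The CRE, TGACGTCA, was found in 1 of 20 against 1.65%, and the AP-1 element, TGANTCA, in 3 of 20 against 6.57%. These 3 AP-1 windows belong to 2 genes, since the DDIT3 windows overlap and share the site. The ERSE of endoplasmic reticulum chaperone genes, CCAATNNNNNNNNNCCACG, was found in 0 of 20 windows against 0.074%. At so small a share, 0 of 20 says little. Only exact matches were counted, so near matches were missed. The DDIT3 windows hold ccaatgccggcgtgccact, which differs from the ERSE in its last base. A match describes the letters and is not a binding site, and elements farther from the start were not searched.

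The targeted gene followed the labels. NCOA1 had signals of 5.47 and 5.18 (log2) with SRC-1 siRNA and glucose, against 8.60 and 8.42 with control siRNA and glucose, a 9.10-fold fall, and it fell 8.78-fold without glucose (adjusted p = 1.65e-05, limma with Benjamini-Hochberg adjustment). The 2 arrays of a group correlated at 0.997 to 0.998 over all probe sets. All 8 of 8 A549 and epithelial markers, such as KRT8, KRT18 and AKR1B10, lay above the filter on dim signals. Of markers of other cells, 4 of 6 for fibroblasts, 2 of 3 for leukocytes and 2 of 4 for endothelium also lay above it, COL1A1 the brightest at 7.88, while COL1A2, COL3A1, PTPRC, CDH5 and KDR lay below. The 3′ minus 5′ signal of GAPDH, a sign of RNA quality, averaged 0.16 with glucose and 0.13 without (exact permutation p = 0.0571, two-sided, 4 arrays each), and that of beta-actin 0.57 and 0.48 (exact permutation p = 0.143, two-sided). Of 4 alveolar type II markers 3 lay above the filter, and their summed level was 22 with glucose and 24.7 without, with either siRNA. LAMP3 carried this, at 4.23 and 4.14 with glucose against 6.77 and 6.93 without (SRC-1 siRNA and control siRNA). The part of RNA quality and of these markers in the results was not tested.

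**Figure D1:**
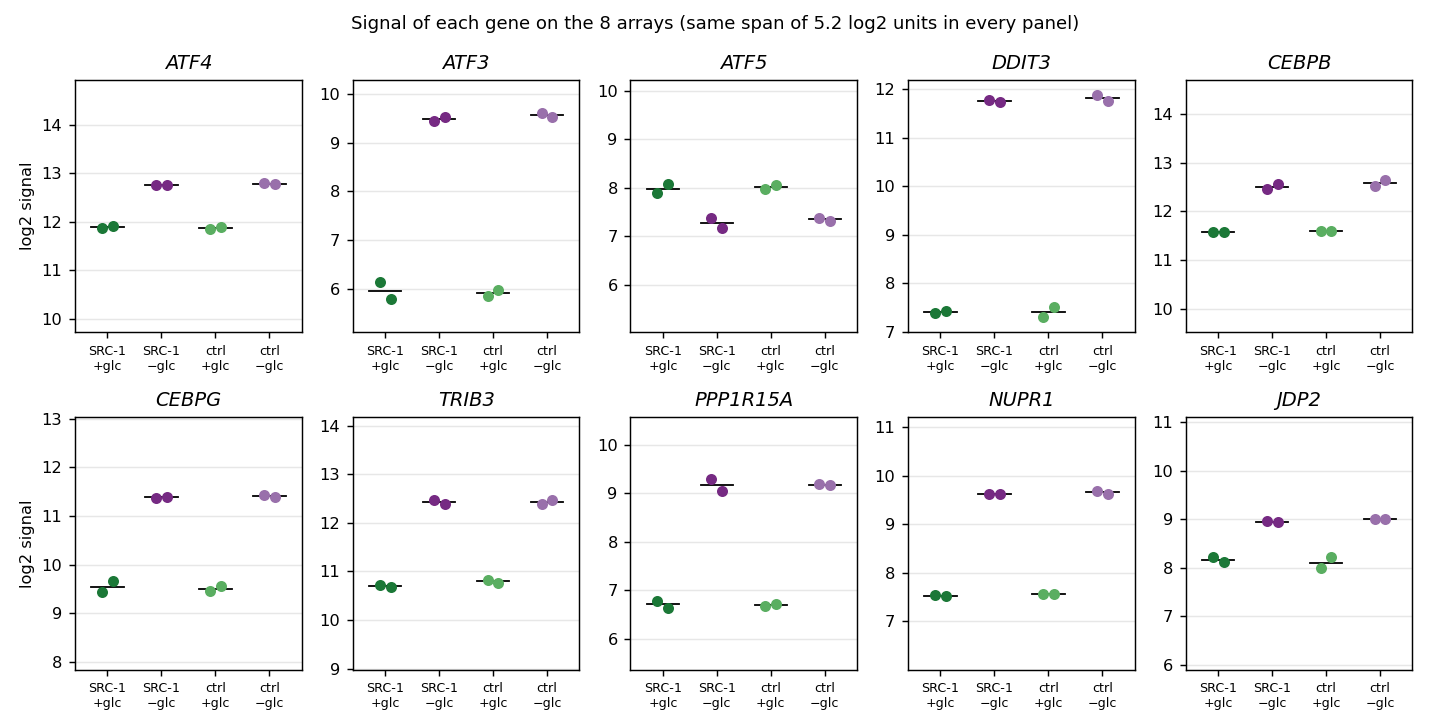
Log2 signal (vertical axis) of the brightest probe set of each gene on the 8 arrays, grouped on the horizontal axis by siRNA (SRC-1 or control, ctrl) and by medium with (+glc) or without (−glc) glucose. Points are arrays and lines are group means. The arrays with glucose lie below those without for 9 genes and above them for ATF5, while the groups of different siRNA in the same medium lie close together.

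In cells with control siRNA, 9 of the 10 genes had lower mRNA with glucose than without, and ATF5 was higher. Of all 13584 genes, 21.6% were called lower and 23.6% higher at an adjusted p of 0.05 (limma, Benjamini-Hochberg). Of the 10, 6 were called at least 2-fold lower, against 2.16% of all genes. For 9 of the 10 both arrays with glucose lay below both arrays without, against 35.4% of all genes. The median change of the 10 was -1.77 on the log2 scale, against 0.00 over all genes tested. Since the members were listed with earlier results of these data known, their distance from these shares was not tested. The changes fell into a wide range, from 21.2-fold lower for DDIT3 to 1.59-fold higher for ATF5.

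In cells with SRC-1 siRNA the same 9 genes were lower with glucose and ATF5 was higher. The share of all genes called was 20.0% lower and 24.6% higher, and 6 of the 10 were again at least 2-fold lower, against 2.03% of all genes. For 9 of the 10 both arrays with glucose lay below both without, against 33.9% of all genes. The median of the 10 was -1.78, against 0.01 over all genes. The glucose effects with each siRNA share no array.

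**Figure D2:**
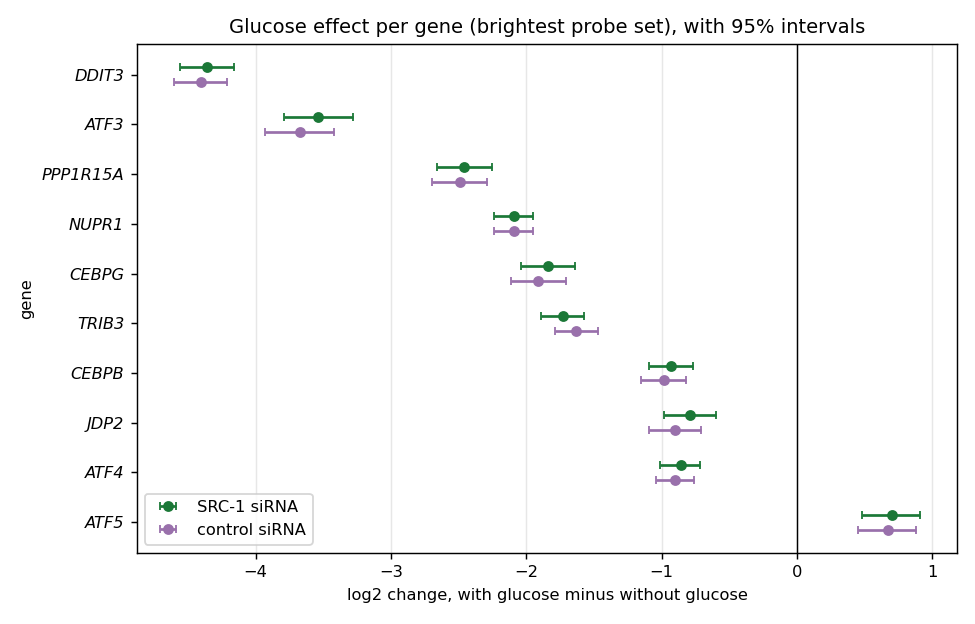
Log2 change with glucose minus without glucose (horizontal axis) of each gene, with its 95% interval, for SRC-1 siRNA and control siRNA. DDIT3 (-4.36 and -4.40) and ATF3 (-3.54 and -3.67) lie farthest left and ATF5 (0.70 and 0.67) lies right of 0.

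ATF4 is the transcription factor at the centre of the response. In cells with SRC-1 siRNA its signal was 11.87 and 11.91 (log2) with glucose, against 12.76 and 12.75 without. In cells with control siRNA it was 11.86 and 11.90 with glucose, against 12.79 and 12.77 without. All 4 arrays with glucose lay within 0.05 of each other and below all 4 arrays without. The change was -0.86 ± 0.061 with SRC-1 siRNA and -0.90 ± 0.061 with control siRNA (SE, n = 2 per group, adjusted p = 1.69e-05 and 1.42e-05, limma), or 1.82-fold and 1.87-fold lower.

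DDIT3 encodes CHOP, a C/EBP family member that is a target of ATF4 and is tied to cell death after lasting stress. Its signal was 7.39 and 7.42 with SRC-1 siRNA and glucose, against 11.78 and 11.74 without glucose. Control siRNA cells gave 7.30 and 7.52 with glucose, against 11.88 and 11.75 without. The groups with and without glucose stood far apart and the 2 arrays within a group differed by at most 0.22. The change was -4.36 ± 0.086 with SRC-1 siRNA and -4.40 ± 0.086 with control siRNA (SE, adjusted p = 9.45e-08 and 1.09e-07, limma). With control siRNA this was rank 2 among the falls of all 13584 genes.

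ATF3, a repressor and activator induced by many stresses and a target of ATF4, held the next largest change. Its brightest probe set read 6.13 and 5.79 with SRC-1 siRNA and glucose, against 9.46 and 9.53 without glucose. With control siRNA it read 5.84 and 5.97 with glucose, against 9.61 and 9.54 without. The SRC-1 siRNA arrays with glucose differed by 0.34, the widest gap between replicates of the brightest probe sets, and the media did not overlap. The change was 11.6-fold lower with SRC-1 siRNA and 12.8-fold lower with control siRNA (-3.54 ± 0.11 and -3.67 ± 0.11, adjusted p = 5.91e-07 and 4.02e-07, limma), rank 5 among the falls in both.

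The size of the ATF3 change depended on the probe set. A second probe set, 1554980_a_at, changed by -1.90 ± 0.13 with SRC-1 siRNA and by -1.73 ± 0.13 with control siRNA in the fit over all probe sets (SE, adjusted p = 3.04e-05 and 4.85e-05, limma). The third, 1554420_at, was the only one of the 19 below the filter on dim signals. It read between 4.36 and 4.75 on all 8 arrays, changed by -0.12 with either siRNA and was not called (adjusted p = 0.472 and 0.485). The direction was thus shared by the probe sets above the filter, and the fold was not.

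PPP1R15A encodes GADD34, the stress-induced subunit that directs protein phosphatase 1 to eIF2. Its signal was 6.78 and 6.64 with SRC-1 siRNA and glucose, against 9.29 and 9.05 without glucose. Control siRNA cells had 6.67 and 6.71 with glucose, against 9.18 and 9.17 without. It was 5.49-fold lower with SRC-1 siRNA and 5.63-fold lower with control siRNA (-2.46 ± 0.090 and -2.49 ± 0.090, adjusted p = 9.28e-07 and 7.61e-07, limma). Its other probe set, 202014_at, gave -2.33 and -2.46, so the 2 probe sets of this gene read alike.

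TRIB3, a pseudokinase that binds ATF4 and CHOP and dampens their activity, is the other feedback gene. Its signal was 10.72 and 10.68 with SRC-1 siRNA and glucose, against 12.47 and 12.38 without glucose. With control siRNA it was 10.83 and 10.77 with glucose, against 12.39 and 12.47 without. It was 3.32-fold and 3.10-fold lower (-1.73 ± 0.069 and -1.63 ± 0.069, adjusted p = 1.13e-06 and 1.49e-06, limma). The second probe set, 1555788_a_at, gave -1.95 and -2.11, both called.

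NUPR1 encodes a small stress-induced protein of the nucleus. Its 1 probe set, 209230_s_at, has a name ending in _s_at, which marks probe sets that may bind more than 1 transcript. It read 7.54 and 7.52 with SRC-1 siRNA and glucose, against 9.62 and 9.62 without glucose. Under control siRNA it read 7.57 and 7.56 with glucose, against 9.69 and 9.62 without. The fall was 4.27-fold with either siRNA (-2.09 ± 0.063, adjusted p = 4.64e-07 with SRC-1 siRNA and 4.02e-07 with control siRNA, limma). The 2 arrays of a group differed by at most 0.08.

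Among the members, the C/EBP factors CEBPG and CEBPB, which can pair with ATF4, fell as well. Not all C/EBP genes did. Outside the members, CEBPD was called higher with glucose (0.72 with SRC-1 siRNA and 0.70 with control siRNA). CEBPA was not called (0.06 and 0.07). CEBPG, which lacks a strong activation domain and forms dimers with ATF4, read 9.43 and 9.66 with SRC-1 siRNA and glucose, against 11.36 and 11.40 without glucose. Under control siRNA it read 9.45 and 9.55 with glucose, against 11.44 and 11.39 without. It was 3.57-fold lower with SRC-1 siRNA and 3.76-fold lower with control siRNA (-1.84 ± 0.087 and -1.91 ± 0.087, adjusted p = 2.67e-06 and 2.11e-06, limma), and its other probe set, 225527_at, gave the smaller changes of -1.29 and -1.24, both called.

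CEBPB, an activator that also serves inflammation and fat cell differentiation, changed by less than CEBPG. Its 1 probe set read 11.58 and 11.58 with SRC-1 siRNA and glucose, against 12.46 and 12.56 without glucose. With control siRNA it read 11.59 and 11.60 with glucose, against 12.52 and 12.64 without. The fall was 1.90-fold with SRC-1 siRNA and 1.98-fold with control siRNA (-0.93 ± 0.071 and -0.98 ± 0.071, adjusted p = 2.38e-05 and 1.76e-05, limma).

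JDP2, a close relative of ATF3 that binds CRE and AP-1 sites, mostly as a repressor, read 8.21 and 8.11 with SRC-1 siRNA and glucose, against 8.96 and 8.94 without glucose. Control siRNA cells read 7.99 and 8.21 with glucose, against 9.0 and 9.01 without. The fall was 1.73-fold with SRC-1 siRNA and 1.87-fold with control siRNA (-0.79 ± 0.083 and -0.90 ± 0.083, adjusted p = 1.27e-04 and 6.51e-05, limma). Its dimmer probe set, 239085_at, changed by -0.20 and -0.10 and was not called (adjusted p = 0.241 and 0.577), and the mean of both probe sets changed by -0.50 with either siRNA.

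ATF5, a relative of ATF4 whose mRNA is also translated better when eIF2 is phosphorylated, was the member that rose with glucose. Its brightest probe set, 204998_s_at, read 7.89 and 8.07 with SRC-1 siRNA and glucose, against 7.38 and 7.18 without glucose. With control siRNA it read 7.97 and 8.06 with glucose, against 7.38 and 7.32 without. All 4 arrays with glucose lay above all 4 without. The rise was 1.62-fold with SRC-1 siRNA and 1.59-fold with control siRNA (0.70 ± 0.094 and 0.67 ± 0.094, adjusted p = 4.68e-04 and 5.96e-04, limma).

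The 4 probe sets of ATF5 did not share this size. The probe set 204999_s_at rose by 0.61 ± 0.11 with SRC-1 siRNA (adjusted p = 0.00375, limma over all probe sets) and differed by 0.33 ± 0.11 with control siRNA, which was not called (adjusted p = 0.0585). The difference between the siRNAs was called for 0 probe sets. The probe set 230938_x_at changed by -0.08 and -0.11 and 217389_s_at by -0.06 and 0.05, none of them called. The mean of the 4 probe sets rose by 0.29 with SRC-1 siRNA and by 0.23 with control siRNA, and both were still called. All 4 have names ending in _s_at or _x_at, which mark probe sets that may bind more than 1 transcript, so the ATF5 rise rests on probe sets of that kind.

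**Figure D3:**
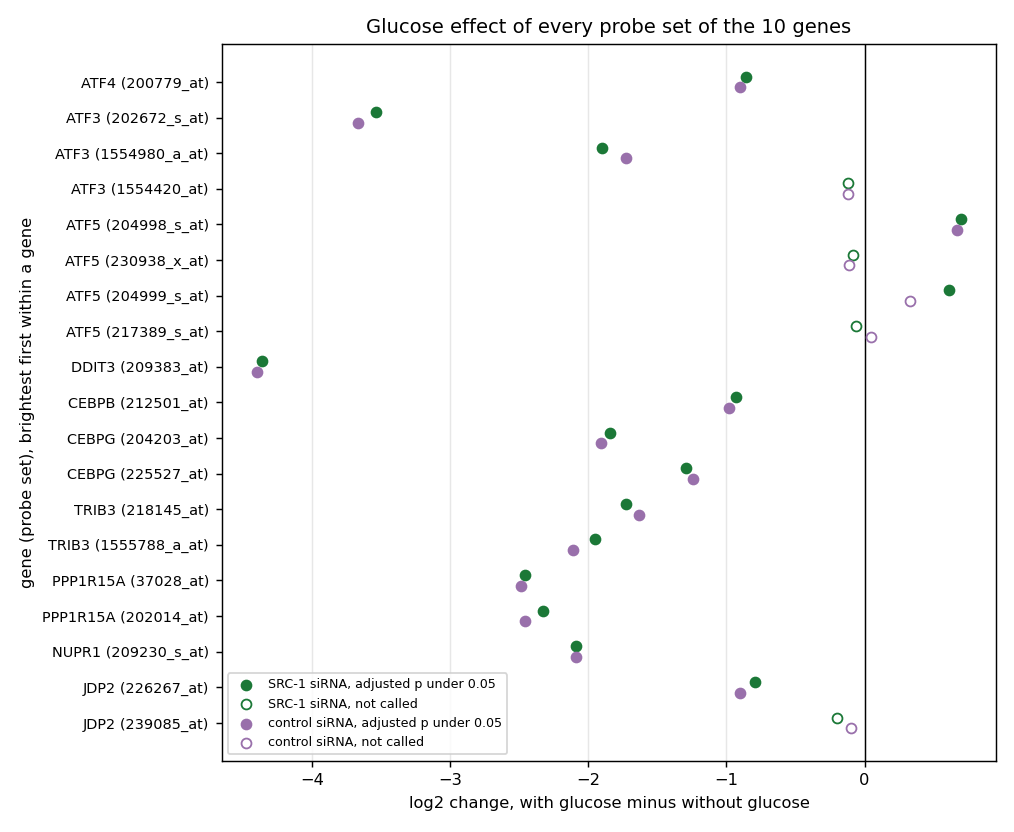
Log2 change with glucose minus without glucose (horizontal axis) of all 19 probe sets, brightest first within a gene. Filled points passed an adjusted p of 0.05 over all probe sets with 1 gene. All probe sets of PPP1R15A, TRIB3 and CEBPG are filled and left of 0, while ATF3, ATF5 and JDP2 have open points near 0.

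Over all 19 probe sets, 13 were called lower and 2 higher with glucose in cells with SRC-1 siRNA. Among all 41091 probe sets, 9601 were called in either direction, 4437 of them lower (10.8% of all). In cells with control siRNA 13 were called lower and 1 higher, against 9890 of 41091 called, 4797 of them lower (11.7% of all). The 41091 include dim probe sets, while 18 of the 19 lay above the filter, so these shares are not like for like. Of the 19, those not called with either siRNA belong to ATF3 (1), ATF5 (2) and JDP2 (1). No probe set of a gene was called in the direction opposite to another of the same gene.

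By size the members fell into a strong group (DDIT3 and ATF3), a middle group from 3.10-fold to 5.63-fold lower (PPP1R15A, NUPR1, CEBPG and TRIB3), and a weak group from 1.87-fold to 1.98-fold lower (CEBPB, ATF4 and JDP2), here given for control siRNA. These groups were formed from the values themselves and describe the brightest probe sets. The place of ATF3 depends on that choice. It changed by -2.70 as the mean of its probe sets above the filter and by -1.73 without _s_at and _x_at probe sets. Among the falls of 13584 genes the ranks of the middle and weak groups ran from 21 for PPP1R15A to 372 for JDP2. Detection calls were not used here, so a fold that ends at a low signal, such as that of ATF3 with glucose, carries no check against background.

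The knockdown of SRC-1 with glucose asks whether the coactivator contributes to these mRNA levels in fed cells. None of the 10 genes was called (0 of 10, limma), against 0.00736% of all genes, and 0 of 10 had an unadjusted p below 0.05. The changes lay between -0.10 (TRIB3) and 0.06 (JDP2 and ATF3), with 5 above and 5 below 0. For CEBPB, TRIB3 and NUPR1 both SRC-1 siRNA arrays lay below both control siRNA arrays, and 12.1% of all genes did the same. Of the 19 probe sets 0 were called, against 0.00973% of all, with a smallest adjusted p of 0.828.

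Without glucose, where 9 of the 10 genes were higher, none of the 10 was called (0 of 10, limma), against 0.0221% of all genes, and 0 of 10 had an unadjusted p below 0.05. The changes lay between -0.08 (ATF3) and 0.00 (TRIB3), with 0 above and 10 below 0, and each 95% interval covered 0. For ATF4, ATF3 and JDP2 both SRC-1 siRNA arrays lay below both control siRNA arrays, against 14.1% of all genes. Of the 19 probe sets 0 were called, against 0.00973% of all.

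For the brightest probe sets, over both media and all 10 genes, the 95% intervals reached at most -0.33, for ATF3 without glucose, and 0.31, for ATF3 with glucose, or 1.26-fold lower and 1.24-fold higher. Other probe sets left more room: with glucose the interval reached 0.63 for PPP1R15A 202014_at and -0.55 for ATF3 1554980_a_at. That of ATF5 204999_s_at, from 0.06 to 0.56, did not cover 0 (0.31, unadjusted p = 0.0213, adjusted p = 0.828, limma). DDIT3 changed by -0.01 (interval -0.21 to 0.19) with glucose and by -0.05 (-0.25 to 0.14) without. ATF4 changed by 0.01 (-0.13 to 0.15) with glucose and by -0.03 (-0.17 to 0.11) without. Averaged over both media, 0 of 10 were called, against 0.0294% of all genes, and the changes lay between -0.06 (ATF5) and 0.01 (PPP1R15A).

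**Figure D4:**
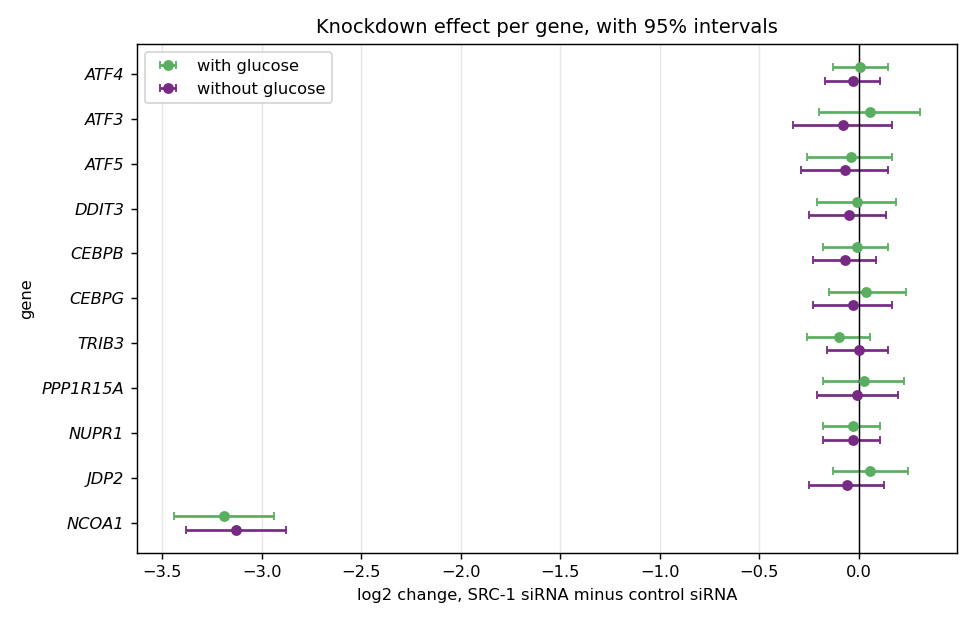
Log2 change with SRC-1 siRNA minus control siRNA (horizontal axis) of each gene and of the targeted NCOA1, with 95% intervals, in medium with and without glucose. The 10 genes lie between -0.10 and 0.06 and their intervals all cover 0, while NCOA1 lies at -3.19 and -3.13.

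Whether the knockdown altered the response to glucose was tested as the difference of the glucose effects. For the 10 genes it ranged from -0.10 for TRIB3 to 0.14 for ATF3, with 9 above and 1 below 0, and 0 of 10 were called (smallest unadjusted p = 0.343, adjusted p = 0.999, limma). Of all 13584 genes 0% were called, and 465 had an unadjusted p below 0.05. The widest interval was that of ATF3, from -0.22 to 0.50, and that of DDIT3 ran from -0.23 to 0.32. A missed threshold does not show that the effects were equal, and these intervals give the differences that the 8 arrays allow.

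In the brightest probe sets, 9 genes had both groups without glucose above both groups with glucose, and ATF5 had the reverse. The uncalled probe sets ATF5 230938_x_at, ATF5 217389_s_at and ATF3 1554420_at mixed the media, and the order of the siRNAs within a medium differed between probe sets of 1 gene. Groups that share a medium were not called different.

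The lists below hold other genes of the pathway. Their counts stand against 20.0% of all genes called lower and 24.6% higher with SRC-1 siRNA, and 21.6% lower and 23.6% higher with control siRNA. The mRNAs of the eIF2 kinases, of eIF2 and of eIF2B were listed together with GCN1, IMPACT, DELE1 and OMA1. The shares called lay near or somewhat above those of all genes. With SRC-1 siRNA 4 of 16 were called higher and 5 lower (median 0.02), and with control siRNA 5 of 16 higher and 6 lower (median 0.05). EIF2AK3, which encodes PERK, was lower with glucose (-0.97 ± 0.071 with SRC-1 siRNA and -1.01 ± 0.071 with control siRNA, SE), as were IMPACT, an inhibitor of GCN2 activation (-0.90 and -1.13), and EIF2S2, which encodes the beta subunit of eIF2 (-0.56 and -0.57). EIF2AK2, which encodes PKR, was higher (0.63 and 0.69), and so was EIF2AK4, which encodes GCN2 (0.47 and 0.33, adjusted p = 0.0104 and 0.0443, limma). EIF2AK1, which encodes HRI, was called higher with SRC-1 siRNA (0.26 ± 0.066, adjusted p = 0.0118, limma) and had 0.07 ± 0.066 with control siRNA (adjusted p = 0.447), and EIF2S1, the phosphorylated subunit, was called with neither (0.02 and 0.04). The difference between the siRNAs was not called for any of these genes, nor for those of the next lists.

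Other genes of the return path to normal translation moved less than PPP1R15A. Of 8 tested, 1 was called higher and 2 lower with SRC-1 siRNA (median -0.12), and 1 higher and 4 lower with control siRNA (median -0.29), in SRC-1 siRNA cells near the 20.0% of all genes called lower. DNAJC3, a co-chaperone known to inhibit PERK, was lower (-1.66 ± 0.066 and -1.77 ± 0.066, SE). PPP1R15B, the constitutive counterpart of PPP1R15A, had -0.18 ± 0.080 with SRC-1 siRNA (adjusted p = 0.100, limma) and was called lower with control siRNA (-0.33 ± 0.080, adjusted p = 0.00953). The catalytic subunit gene PPP1CC was higher (0.34 and 0.42), PPP1CA (0.12 and 0.12) was not called, and TRIB2 did not pass the filter. The adaptor NCK1 was lower (-0.29 and -0.31), and the kinase BRSK2 was not called (0.11 and -0.04).

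The genes that ATF4 and CHOP are known to switch on were mostly lower with glucose. Among 19 genes of amino acid supply and one-carbon metabolism, 16 were called lower and 0 higher with SRC-1 siRNA (median -0.92), and 15 lower and 0 higher with control siRNA (median -0.98), against 20.0% and 21.6% of all genes called lower. ASNS, asparagine synthetase, changed by -2.13 ± 0.073 and -2.30 ± 0.073 (SE), PCK2 by -2.16 and -2.27, the folate enzyme ALDH1L2 by -2.80 and -2.92, and the serine synthesis enzyme PHGDH by -1.50 and -1.49. The transporter SLC7A5 (0.09 and 0.05) and ALDH18A1 of proline synthesis (0.05 and -0.07) were not called. Of 11 aminoacyl-tRNA synthetases, 11 were called lower with either siRNA (medians -1.07 and -1.10), from -1.92 and -2.04 for WARS1 to -0.37 and -0.35 for TARS1. AARS1 (-1.38 and -1.28), SARS1 (-1.44 and -1.48), CARS1 (-1.21 and -1.26) and LARS1 (-0.52 and -0.55) lay between.

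Of 17 stress effectors downstream of ATF4 and CHOP, 13 were called lower and 1 higher with either siRNA (medians -0.61 and -0.71), against 20.0% and 21.6% of all genes called lower and 24.6% and 23.6% called higher. HERPUD1, which serves the removal of misfolded proteins, changed by -2.52 ± 0.065 with both siRNAs (SE), the hormone STC2 by -2.51 and -2.77, GADD45A by -2.12 and -2.19 and the autophagy gene MAP1LC3B by -1.26 and -1.40. BCL2L11, which encodes the death protein BIM and was named after its values were seen, was the 1 higher (0.42 and 0.44). KLHL24 (-0.04 and 0.10) and CEBPA (0.06 and 0.07) were not called. Whether CEBPA, itself a C/EBP factor, is a target of ATF4 or CHOP was not tested.

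Other bZIP factors, the family to which 7 of the members belong, were set beside them. The list also holds CEBPZ, which shares the name but has no bZIP domain. The lists overlap. CEBPA is also counted among the stress effectors, and XBP1 and ATF6 also among the genes of the IRE1 and ATF6 arms. Of 38 tested, 4 were called higher (CEBPD, JUND, DBP and CEBPZ, named after their values were seen) and 22 lower with either siRNA, against 20.0% and 21.6% of all genes called lower, with a median of -0.34 for SRC-1 siRNA and -0.40 for control siRNA. MAFF (-2.16 ± 0.082 and -2.36 ± 0.082, SE), NFIL3 (-1.27 and -1.26), CREBRF (-1.26 and -1.53) and CREB3L4 (-0.94 and -0.91) had the smallest p, and MAF (0.05 and 0.11) was not called. Of the 38, 7 were at least 2-fold lower with control siRNA, against 6 of the 10 members and 2.16% of all genes. Members and bZIP genes were both listed with earlier results of these data known, so the difference between the lists was not tested.

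**Figure D5:**
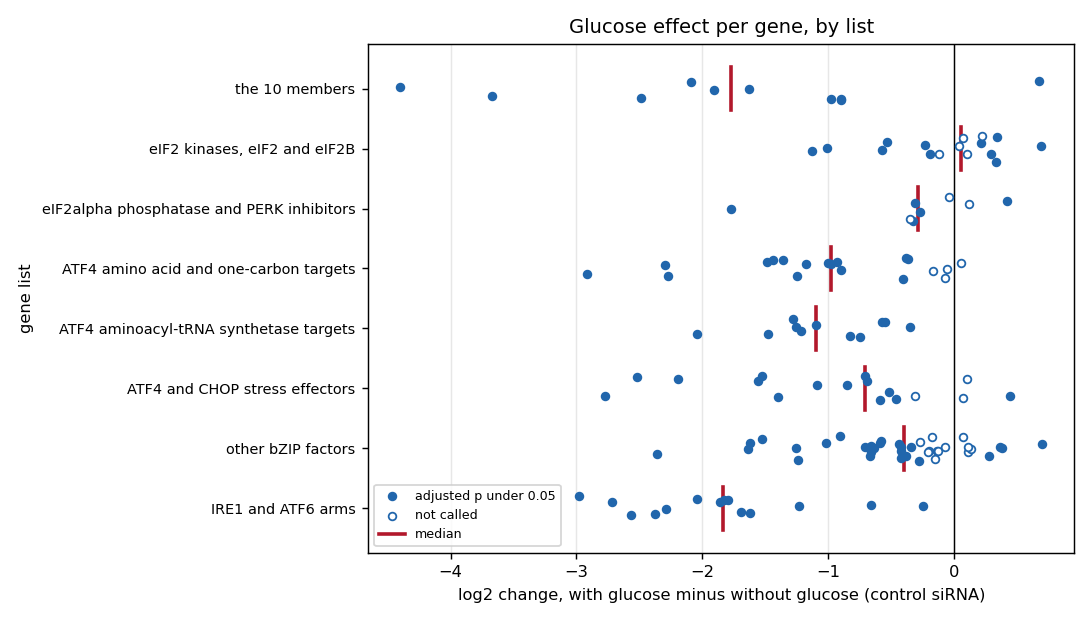
Log2 change with glucose minus without glucose in cells with control siRNA (horizontal axis) for the 10 members and for the genes of each list. Filled points passed an adjusted p of 0.05 and bars are medians, which run from -1.84 for the IRE1 and ATF6 arms and -1.77 for the members to 0.05 for the eIF2 kinases, eIF2 and eIF2B.

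The genes with the most similar pattern were found by the Euclidean distance of the log2 values over the 8 arrays, each gene centred on its own mean. Since glucose moved many genes, a small distance mostly means a glucose effect of the same size. Nearest to ATF4 were PDIA6 (distance 0.0841), DALRD3 (0.0977) and GCC1 (0.109). Nearest to DDIT3 were NIBAN1 (0.451), RAB39B (0.535) and BEX4 (1.40), and nearest to ATF3 were BEX4 (0.458), BEX2 (0.496) and RAB39B (0.636). For PPP1R15A they were HERPUD1 (0.232), SDF2L1 (0.297) and ZFAND2A (0.297). For NUPR1 they were TMEM50B (0.0994), PDIA4 (0.161) and GPCPD1 (0.163), and for CEBPG DNAJB11 (0.188), LINC00662 (0.219) and MANF (0.227).

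TRIB3 lay nearest to DUSP5 (0.142), CDK2AP2 (0.172) and IL11 (0.209). CEBPB lay nearest to NTN4 (0.115), CCN1 (0.127) and LONP1 (0.148), and JDP2 to CHIC2 (0.103), GOLGA2 (0.136) and GPD1L (0.145). ATF5 lay nearest to NCOA5 (0.113), CENPX (0.128) and MYBL2 (0.147), all higher with glucose. Among the members themselves ATF4 was 0.17 from CEBPB and 0.17 from JDP2, while DDIT3 was 1.14 from ATF3, the closest to it.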

How the data were processed

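The deposited table holds log2 signals per probe set (1.98 to 14.7, 0 missing) for 8 arrays. The log base was read from the values, and the authors' background correction, summary and normalization are not given in the sources used here. The 2 arrays of a group may differ only technically, and the p-values then cover that spread alone.

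Of 54675 probe sets, 41091 had 1 gene in the platform annotation. Those with a mean below the 40th percentile (log2 4.80) were left out and the brightest probe set of each gene was kept, which gave 13584 genes. All 8 arrays entered 1 fit (limma 3.58.1, R 4.3.3) with a mean per group, 4 residual and 4.35 prior degrees of freedom, two-sided moderated tests and Benjamini-Hochberg adjustment over all genes. Single probe sets come from a like fit over all 41091 with no filter. Permuting 2 against 2 arrays cannot give a p below 0.333. The fit was also tested on simulated data, and the outcome is not given here.

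Named are the members, NCOA1, the 3 nearest genes of each member, and of each list the 4 genes with the smallest and up to 2 with the largest p for the glucose effect with control siRNA. EIF2AK4, GCN1, DELE1, OMA1, BCL2L11, TRIB2, CEBPD, JUND, DBP, CEBPZ, XBP1 and the cell type markers fall outside this rule. Members and lists were chosen with earlier results of these data known. Alternatives were quantile normalization, median centring, other filters, the mean of probe sets, leaving out _s_at and _x_at probe sets, a trended prior, array weights, a replicate block, only the groups compared, and leaving out each array. Replicates with the same number did not deviate together (correlations from -0.096 to 0.12), so they were not treated as pairs.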

Additional observations from a re-analysis of the deposited data

How the results depend on the processing

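All 10 members kept their direction and their call for the glucose effect with each siRNA under every alternative that tested them. ATF5 and NUPR1 could not be tested without _s_at and _x_at probe sets, which left 8 members called of 8. The members' knockdown effects and the difference of the glucose effects stayed uncalled under all alternatives run, and such uncalled values changed sign in 18, 11, 22 and 19 cases (knockdown with glucose, without, averaged, and difference). Without _s_at and _x_at probe sets ATF3 changed by -1.90 with SRC-1 siRNA and -1.73 with control siRNA, by the switch to another probe set. With the replicate block, 0 members were called in any knockdown comparison and 10 in each glucose comparison. Genes called for the knockdown without glucose numbered 3, and 1 with the replicate block, with no filter or with only the groups compared, 5 with a trended prior, and 1 to 2 when leaving out each array. The knockdown with glucose gave 1 gene, 2 with a filter at the 60th percentile and 3 with a trended prior. The average gave 4, 7 with a trended prior and 2 to 3 when leaving out each array. The cause was not tested. The number of arrays limits the precision: the median SE of a log2 difference of 2 groups was 0.0834.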

Other observations

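The other arms of the stress response of the endoplasmic reticulum, run by IRE1 and ATF6, were mostly lower with glucose, as were 9 of the 10 members. Of 14 tested genes of these arms, 13 were called lower with glucose in cells with SRC-1 siRNA (median -1.92) and 14 in cells with control siRNA (median -1.84), with 0 called higher in either (limma), against 20.0% and 21.6% of all genes called lower. CRELD2 changed by -3.05 ± 0.072 and -2.98 ± 0.072 (SE, n = 2 per group), the chaperone HYOU1 by -2.59 and -2.72, the disulfide isomerase PDIA4 by -1.99 and -2.04, and DNAJB11 by -1.88 and -1.86. The sensor gene ATF6 changed by -0.82 and -0.66, and the translocon gene SEC61B had -0.19 with SRC-1 siRNA, which was not called (adjusted p = 0.0541), and was called lower with control siRNA (-0.25).

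Besides LAMP3, the alveolar type II markers SFTPC, SFTPB and SFTPD had means over the 8 arrays of 7.64, 5.97 and 4.21.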
